A study of Mus musculus with 18 samples.

Results

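A list of 8 genes that mark blood monocytes and neutrophils entering a tissue was followed across 4 treatments of MC38 tumours, a mouse colon carcinoma grown from a cell line: S100a8, S100a9, Plac8, Vcan, Csf3r, Retnlg, Fn1 and Trem1. Of the 8, 7 had a probe set assigned to a single gene and are described here, out of 18193 genes measured that way. Retnlg, a neutrophil granule protein gene, was not analysed here. The genes were chosen from a contrast already known in these arrays, MEKi/CD40 tumours against control tumours, so their values in that contrast are a description and carry no test.

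The mice were C57BL/6-Ly5.1, aged 6 to 12 weeks, and received 500000 MC38 cells in PBS and Matrigel under the skin of the flank. MEKi/CD40 tumours (n = 4) had the MEK inhibitor GDC-0623 at 30 mg/kg daily for about 2 weeks together with an agonistic anti-CD40 antibody; MEKi tumours (n = 5) had GDC-0623 with a control antibody, anti-CD40 tumours (n = 4) had vehicle with anti-CD40, and control tumours (n = 5) had vehicle with the control antibody. Antibodies were given into the peritoneum on treatment days 3, 5 and 7 and on the day before analysis, and tumours were taken on day 22. Each array held RNA of a piece of whole tumour from 1 animal, so its cells were tumour cells and host cells together. A lower signal from fewer cells of a type and one from less RNA per cell cannot be told apart in such samples. Group names below stand for these 4 treatments.

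Neutrophils and classical monocytes are short-lived blood cells that leave the vessels for inflamed or growing tissue, where monocytes can become macrophages. Both carry the calcium-binding proteins S100A8 and S100A9, which together form calprotectin, in their cytoplasm in large amounts. Monocytes entering a tissue also make matrix proteins such as versican and fibronectin, and neutrophils respond to the growth factor G-CSF. Several of these genes are not restricted to such cells: fibroblasts make versican and fibronectin, and stressed keratinocytes make calprotectin.

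All levels are log2 signals as deposited, on which a difference of 1 is a doubling, and values below 3 were taken as background, since 53.7 to 55.8% of probe sets on an array lay at the floor of the scale. Array medians lay between 2.72 and 2.95, and replicates within a group correlated at 0.987 to 0.998 over all probe sets. The mean level of 5 common leukocyte genes was 11.16 to 12.48 in MEKi/CD40, 10.75 to 11.87 in MEKi, 11.79 to 12.26 in anti-CD40 and 11.78 to 12.33 in control tumours. In MEKi against control tumours 1 of the 5, Coro1a, was called lower by limma, where 3.83% of all probe sets were. Of 9 epithelial genes listed for tumour cells, 8, among them Epcam, Krt8, Krt18 and Krt19, were below 3 on all 18 arrays, so the labelled carcinoma was not seen through them.

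S100a8 and S100a9 encode the pair of calprotectin subunits. They lie next to each other on chromosome 3, with 0 other protein-coding genes between them in the RefSeq annotation, and their signals had the same order of groups. The RefSeq promoter windows of build GRCm38.p6, from 250 bases before to 50 bases after each start, are shown because the members that differed most between treatments share this neighbourhood. They lie at chr3:90668821-90669120 on the + strand for S100a8 and at chr3:90695672-90695971 on the − strand for S100a9. Capitals mark the TATA box letters TATAAA and the core recognised by PU.1, the myeloid lineage factor, GAGGAA, each sought on both strands (the reverse letters are TTTATA and TTCCTC).
S100a8: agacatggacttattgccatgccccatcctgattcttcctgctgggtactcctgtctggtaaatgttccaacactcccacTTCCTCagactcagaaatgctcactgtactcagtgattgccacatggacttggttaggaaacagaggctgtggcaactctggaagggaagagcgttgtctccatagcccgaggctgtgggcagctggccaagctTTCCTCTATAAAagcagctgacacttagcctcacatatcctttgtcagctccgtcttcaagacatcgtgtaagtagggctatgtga
S100a9: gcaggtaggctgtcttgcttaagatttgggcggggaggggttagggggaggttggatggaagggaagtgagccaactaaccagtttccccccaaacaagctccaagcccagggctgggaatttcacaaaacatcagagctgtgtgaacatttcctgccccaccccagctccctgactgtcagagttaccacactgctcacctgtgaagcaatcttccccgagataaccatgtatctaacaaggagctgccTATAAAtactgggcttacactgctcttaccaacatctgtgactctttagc
In S100a8, counting from the start, TATAAA began at position -30, directly after 1 of 2 TTCCTC matches, and the other TTCCTC match began at position -170. In S100a9, TATAAA began at the start itself, and GAGGAA was not in this window. TATAAA was found in 13.6% and GAGGAA in 28.3% of all 32851 promoter windows of this length, and the matches are a description of the letters only. Promoter windows were matched for 7 of the 8 listed genes. Spi1, which encodes PU.1, was measured too. It was at 7.22 to 9.13 in MEKi/CD40, 7.02 to 8.14 in MEKi, 8.34 to 8.93 in anti-CD40 and 8.44 to 8.99 in control tumours.

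S100a8 was near background in control tumours and higher in every treated group. Its signals were 8.87, 9.29, 10.79 and 7.51 in MEKi/CD40 tumours 1 to 4, and 6.35, 7.30, 6.94, 6.65 and 4.43 in MEKi tumours 1 to 5. They were 7.33, 5.31, 4.76 and 6.45 in anti-CD40 tumours 1 to 4, against 3.35, 3.70, 2.95, 3.72 and 3.91 in control tumours 1 to 5. All 4 MEKi/CD40 tumours lay above all other tumours, and all 13 treated tumours lay above all 5 control tumours. The group means were 9.11 ± 1.35 (SD, n = 4) in MEKi/CD40, 6.33 ± 1.12 (SD, n = 5) in MEKi, 5.96 ± 1.15 (SD, n = 4) in anti-CD40 and 3.53 ± 0.38 (SD, n = 5) in control tumours. As a description, MEKi/CD40 tumours were at least 47.8-fold above control tumours, with values below 3 raised to 3.

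S100a9 had the same order of groups, from a lower base. Its signals were 7.37, 8.04, 7.81 and 5.84 in MEKi/CD40 tumours, and 5.48, 6.41, 5.75, 5.65 and 2.48 in MEKi tumours. They were 6.06, 3.79, 2.47 and 5.29 in anti-CD40 tumours, against 2.47, 2.47, 2.36, 2.47 and 2.16 in control tumours. The 5 control tumours, MEKi tumour 5 and anti-CD40 tumour 3 were all below 3, and the same treated tumours were the lowest of their groups for S100a8. MEKi/CD40 tumours averaged 7.26 ± 0.99 (SD, n = 4) and control tumours 2.39 ± 0.14 (SD, n = 5), at least 19.2-fold apart.

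Plac8, a small cysteine-rich protein gene of myeloid and lymphoid cells, is high in classical monocytes. Its signals were 12.16, 11.96, 12.63 and 11.66 in MEKi/CD40 tumours, and 10.76, 11.42, 10.76, 10.42 and 10.38 in MEKi tumours. They were 10.23, 10.18, 10.39 and 10.51 in anti-CD40 tumours, against 8.57, 9.33, 9.29, 9.06 and 9.68 in control tumours. No MEKi/CD40 tumour overlapped another group, and no treated tumour overlapped the control tumours. Plac8 replicates were tighter than those of S100a8, with SDs of 0.41, 0.42, 0.15 and 0.41 in MEKi/CD40, MEKi, anti-CD40 and control tumours. MEKi/CD40 tumours were 7.55-fold above control tumours. In this contrast, from which the genes were listed, 4 of the 7 (S100a8, S100a9, Plac8 and Fn1) were called higher or lay above control tumours without overlap, where 5.5% of all probe sets were called higher and 6.53% were higher without overlap, and nothing is read from that count.

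**Figure D1:**
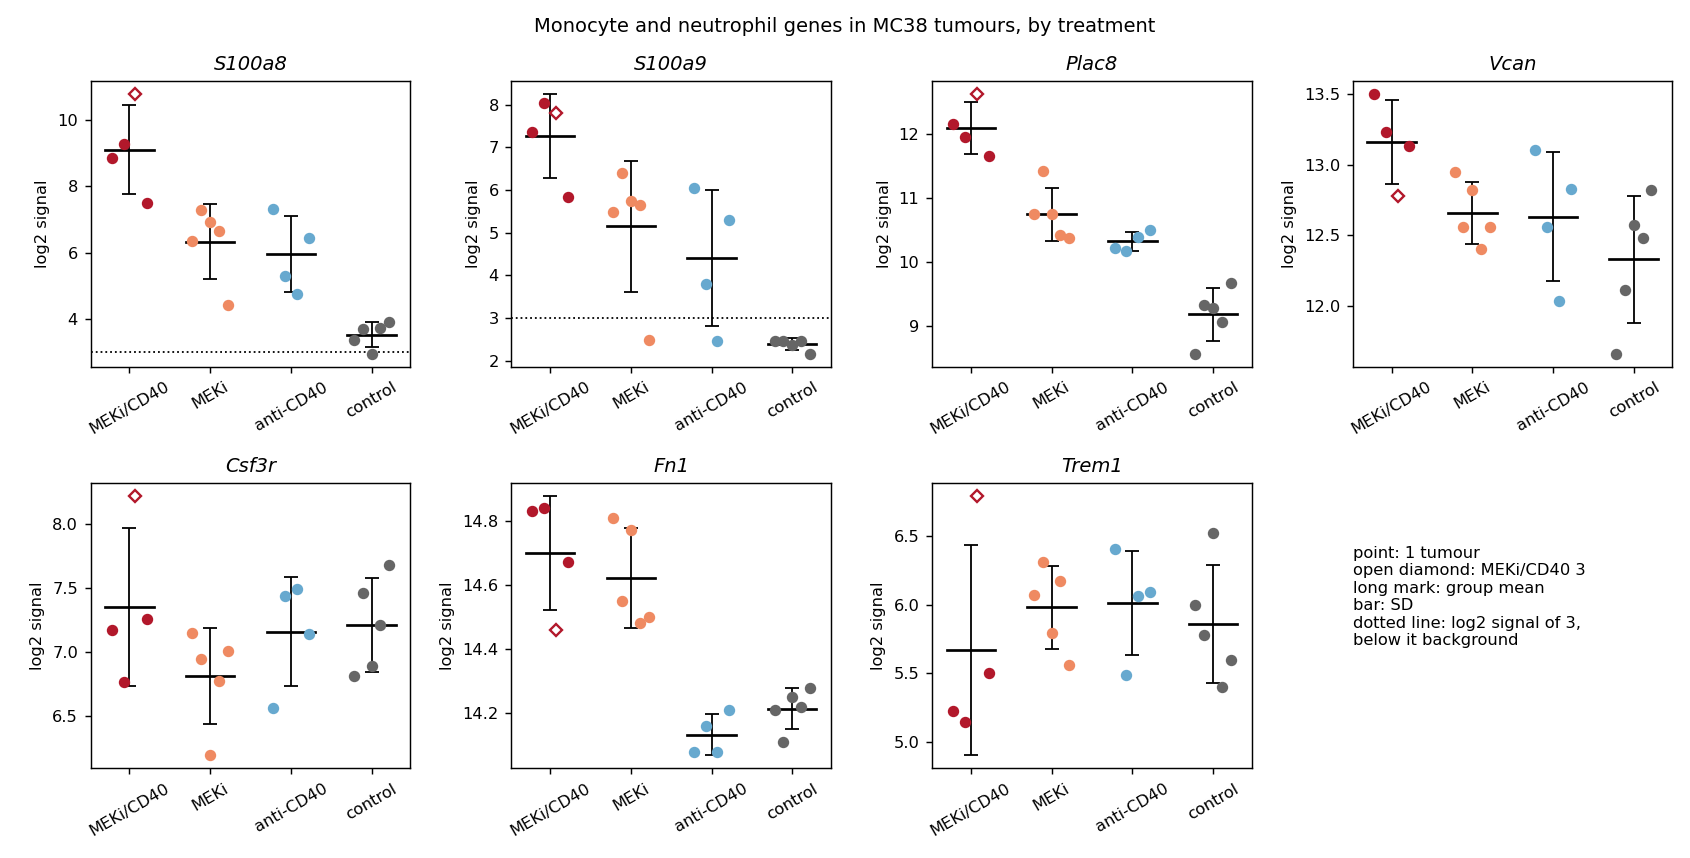
Log2 signal (vertical axis) of 7 genes in each of 18 tumours by treatment group (horizontal axis), with the group mean and SD; the open diamond is MEKi/CD40 tumour 3. S100a8, S100a9 and Plac8 were highest in MEKi/CD40 tumours and lowest in control tumours, Fn1 split the groups with GDC-0623 (14.46 to 14.84) from those without (14.08 to 14.28), and Csf3r and Trem1 overlapped between all groups.

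With the MEK inhibitor alone, S100a8, Plac8 and Fn1 rose against control tumours, and S100a9 passed narrowly. S100a8 was 2.81 ± 0.52 (SE) higher on the log2 scale, at least 6.95-fold (limma, adjusted p = 0.0181), and Plac8 was 1.56 ± 0.26 (SE) higher, 2.95-fold (limma, adjusted p = 0.0127). S100a9 was 2.77 ± 0.67 (SE) higher, with limma's adjusted p = 0.0443. With values below 3 raised to 3 it was 4.78-fold higher, which is not a lower limit, since MEKi tumour 5 was raised too. The deposited S100a9 values of the 2 groups were apart by only the gap between 2.48 in MEKi tumour 5 and 2.47 in the highest control tumour. In all, 4 of the 7 genes were called higher, where 3.99% of all 45037 probe sets were called higher and 3.83% lower. The same 4 lay above control tumours without overlap, as 4.61% of probe sets did. This comparison shares its control tumours with the contrast that chose the genes.

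The S100a9 call was the least stable. It was lost on leaving out any of 9 of the 10 tumours (adjusted p = 0.0799 to 0.105) and was kept only without MEKi tumour 5 (limma, adjusted p = 0.00302). It was also lost with values below 3 raised to 3, at a difference of 2.26 (limma, adjusted p = 0.0534), and with trend and robust moderation (limma, adjusted p = 0.0678). S100a8, Plac8 and Fn1 kept their calls whichever tumour was left out. The sample titles carry numbers in 3 ranges whose meaning is not stated, and MEKi tumours 3 to 5 share a range with control tumours 3 to 5. MEKi/CD40 tumours share one only with control tumours 1 and 2. Within the range of MEKi and control tumours 3 to 5, S100a8 was 2.48 and Plac8 1.18 higher on the log2 scale, and neither was called (limma, adjusted p = 0.427 for S100a8 and 0.239 for Plac8).

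With anti-CD40 alone, S100a8 and Plac8 lay above control tumours without overlap, but no gene passed the test. S100a8 was 2.44 ± 0.53 (SE) higher on the log2 scale (limma, adjusted p = 0.539), S100a9 2.02 ± 0.69 (SE) higher (limma, adjusted p = 0.805), and Plac8 1.14 ± 0.21 (SE) higher (limma, adjusted p = 0.431). With values below 3 raised to 3, that of anti-CD40 tumour 3 among them, S100a9 was 2.90-fold higher, which is not a lower limit. Of all probe sets, 0% were called in this comparison, with 2423 at an unadjusted p under 0.05, and 0.637% were higher without overlap. The other 4 genes differed by 0.30 or less on this scale in either direction, and 3 of the 7 were at an unadjusted p under 0.05. Anti-CD40 tumours share no number range with control tumours, so range and treatment cannot be told apart here. The control tumours are also those of the contrast that chose the genes.

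The direct comparison of MEKi and anti-CD40 tumours uses no array of the contrast that chose the genes, and there the calprotectin genes differed by less than their spread. S100a8 differed by 0.37 ± 0.74 (SE; limma, adjusted p = 0.999), S100a9 by 0.75 ± 1.02 (SE; limma, adjusted p = 0.832) and Plac8 by 0.42 ± 0.22 (SE; limma, adjusted p = 0.387), each higher in MEKi tumours. Fn1 was the 1 gene of 7 called higher, where 2.83% of probe sets were, and the 1 that was higher without overlap, where 5.26% were.

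Adding anti-CD40 to the MEK inhibitor placed S100a8 and Plac8 above every MEKi tumour, again short of the threshold. S100a8 was 2.78 ± 0.80 (SE) higher in MEKi/CD40 than in MEKi tumours (limma, adjusted p = 0.125), S100a9 2.11 ± 0.87 (SE) higher with overlapping groups (limma, adjusted p = 0.278) and Plac8 1.35 ± 0.27 (SE) higher (limma, adjusted p = 0.0517). None of the 7 was called by limma, where 2.5% of probe sets were called in either direction and 0.737% were called higher. Of all probe sets, 3.14% were higher without overlap. At an unadjusted p under 0.05 there were 4 of the 7, and 7564 of 45037 probe sets. With all 18 tumours in one fit, S100a8 and Plac8 passed (limma, adjusted p = 0.0199 for S100a8 and 0.00387 for Plac8). This comparison shares its MEKi/CD40 tumours with the contrast that chose the genes. MEKi/CD40 tumours share no number range with MEKi tumours, so range and treatment cannot be told apart in it.

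Against anti-CD40 tumours, MEKi/CD40 tumours were higher in Plac8 by 1.78 ± 0.21 (SE), 3.42-fold (limma, adjusted p = 0.00553), and in Fn1. These 2 of 7 calls stand beside 4.42% of all probe sets called higher. The MEKi/CD40 tumours are also those of the contrast that chose the genes, so these calls are not independent of that choice. S100a8 was 3.15 ± 0.86 (SE) higher without overlap (limma, adjusted p = 0.0699) and S100a9 2.86 ± 0.91 (SE) higher with overlap (limma, adjusted p = 0.110). S100a8, Plac8 and Fn1 were higher without overlap, as 7.6% of probe sets were. MEKi/CD40 and anti-CD40 tumours share no number range, so range and treatment cannot be told apart in this comparison. Without the 3 tumours highest in adipocyte genes (MEKi/CD40 2 and 4 and anti-CD40 3), neither call held. Plac8 then differed by 2.09 (limma, adjusted p = 0.0726) and Fn1 by 0.50 (limma, adjusted p = 0.265).

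Whether both treatments together gave more or less than the sum of each alone was tested as an interaction over all 18 tumours. For S100a8 it was 0.34 ± 0.97 (SE), for S100a9 0.09 ± 1.12 (SE) and for Plac8 0.21 ± 0.35 (SE) on the log2 scale, with limma's adjusted p = 1 for S100a8 and S100a9 and 0.877 for Plac8. None of the 7 genes passed, where 2.64% of probe sets did, and 0 of the 7 against 6634 of 45037 probe sets were at an unadjusted p under 0.05. With values below 3 raised to 3 the S100a9 interaction was 0.47 ± 0.99 (SE; limma, adjusted p = 1), and since all its control values are below 3 its size is set in part by the floor. The standard errors of both calprotectin genes are near 1, as large as a doubling.

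**Figure D2:**
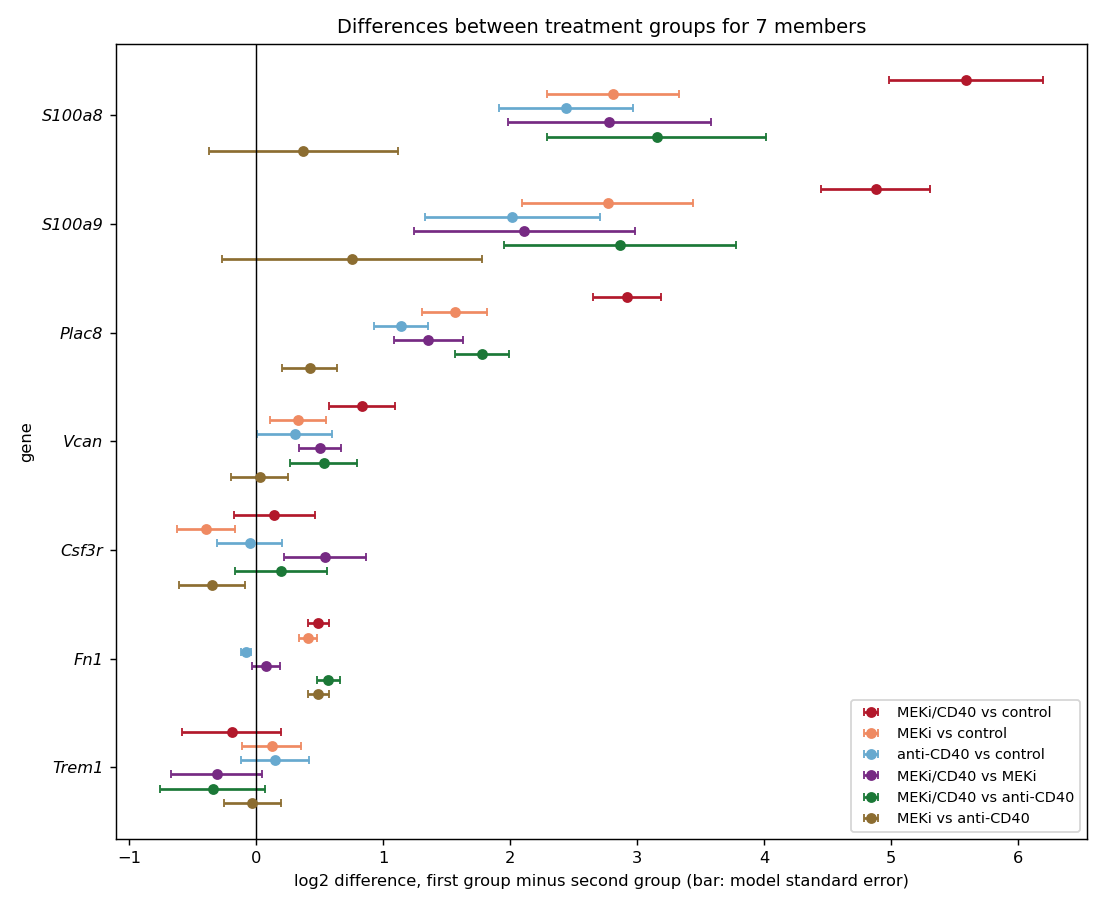
Log2 difference (horizontal axis, first group minus second, with the model's standard error) for 7 genes (vertical axis) in 6 comparisons of treatment groups. S100a8, S100a9 and Plac8 were positive in all 6, from 0.37 to 5.59, and Csf3r and Trem1 lay between -0.40 and 0.54.

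Fn1, fibronectin, a matrix protein of monocytes and fibroblasts, was higher in both groups that had the MEK inhibitor. Its signals were 14.83, 14.84, 14.46 and 14.67 in MEKi/CD40 tumours, and 14.81, 14.55, 14.77, 14.48 and 14.50 in MEKi tumours. They were 14.08, 14.16, 14.08 and 14.21 in anti-CD40 tumours, against 14.21, 14.11, 14.25, 14.22 and 14.28 in control tumours. All 9 tumours with GDC-0623 lay above all 9 without it. The step was small: 0.41 ± 0.07 (SE), 1.33-fold, in MEKi against control tumours (limma, adjusted p = 0.0171), and 0.57 ± 0.09 (SE), 1.48-fold, in MEKi/CD40 against anti-CD40 tumours (limma, adjusted p = 0.0131). Both comparisons share tumours with the contrast that chose the genes.

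In MEKi against anti-CD40 tumours Fn1 was 0.49 ± 0.08 (SE) higher (limma, adjusted p = 0.0252), a call lost without anti-CD40 tumour 1, 2 or 3 or MEKi tumour 2 (adjusted p = 0.0507 to 0.0766). MEKi/CD40 and MEKi tumours overlapped in Fn1, at a difference of 0.08 ± 0.11 (SE; limma, adjusted p = 0.846). The 2 Fn1 probe sets disagreed in direction in MEKi against control tumours. The dimmer, 1437218_at, was at 9.01 to 10.87 in MEKi/CD40, 8.35 to 10.38 in MEKi, 8.46 to 9.07 in anti-CD40 and 9.08 to 9.59 in control tumours, and was 0.29 ± 0.35 (SE) lower in MEKi than in control tumours (limma, adjusted p = 0.732). It was higher in MEKi/CD40 than in anti-CD40 tumours by 0.90 ± 0.42 (SE; limma, adjusted p = 0.284) and in MEKi than in anti-CD40 tumours by 0.25 ± 0.40 (SE; limma, adjusted p = 0.910), neither past the threshold.

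Vcan, versican, is a large proteoglycan of the matrix that classical monocytes and fibroblasts make, and its result depended on the probe set. Its brightest set, 1427256_at, was at 13.50, 13.23, 12.78 and 13.13 in MEKi/CD40 tumours, and at 12.95, 12.56, 12.82, 12.40 and 12.56 in MEKi tumours. It was at 13.10, 12.56, 12.03 and 12.83 in anti-CD40 tumours, against 11.66, 12.11, 12.57, 12.48 and 12.82 in control tumours. All groups overlapped, and no tested comparison passed: MEKi/CD40 against MEKi tumours differed by 0.50 ± 0.17 (SE; limma, adjusted p = 0.180).

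The dimmer Vcan sets separated MEKi/CD40 tumours from the rest. On 1427257_at the signals were 10.96, 10.27, 10.43 and 10.33 in MEKi/CD40 tumours, and 9.59, 8.71, 9.10, 8.63 and 8.90 in MEKi tumours. They were 9.43, 8.30, 8.00 and 8.44 in anti-CD40 tumours, against 7.34, 8.11, 8.58, 8.37 and 8.83 in control tumours. The 4 MEKi/CD40 tumours lay above all other 14.

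On this set, Vcan was 1.51 ± 0.23 (SE) higher in MEKi/CD40 than in MEKi tumours (limma, adjusted p = 0.0303) and 1.96 ± 0.34 (SE) higher than in anti-CD40 tumours (limma, adjusted p = 0.0161). On 1421694_a_at the differences were 0.83 ± 0.15 (SE; limma, adjusted p = 0.0420) against MEKi and 1.07 ± 0.28 (SE; limma, adjusted p = 0.0639) against anti-CD40 tumours. These comparisons share their MEKi/CD40 tumours with the contrast that chose the genes. The size of the difference ran opposite to the brightness of the 3 sets, and the 5 other Vcan sets were below 3 on all arrays. Adamts5, a protease that cleaves versican, rose by 1.53 ± 0.28 (SE) in MEKi/CD40 against MEKi tumours (limma, adjusted p = 0.0436) and by 1.39 ± 0.22 (SE) in MEKi against control tumours (limma, adjusted p = 0.0118).

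**Figure D3:**
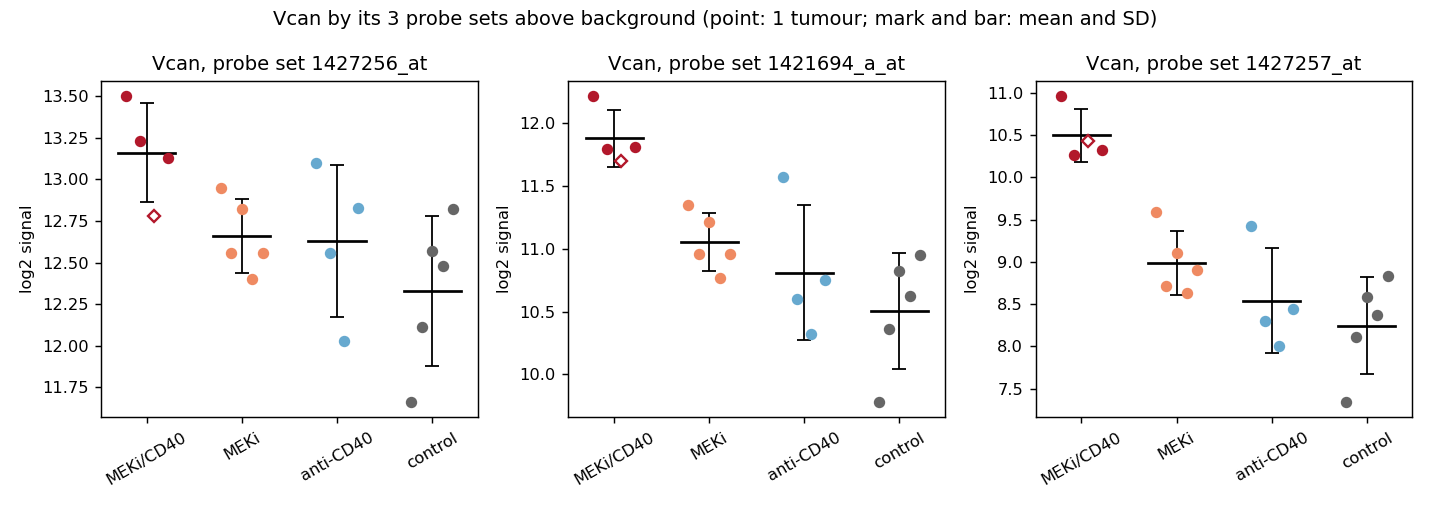
Log2 signal (vertical axis) of Vcan on its 3 probe sets above background, for each tumour by group (horizontal axis), with mean and SD; the open diamond is MEKi/CD40 tumour 3. On 1427257_at the MEKi/CD40 tumours sit at 10.27 to 10.96, above all others, while on 1427256_at they overlap the other groups.

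Csf3r, the G-CSF receptor of neutrophils, and Trem1, an activating receptor of neutrophils and monocytes, passed in no tested comparison. Csf3r was at 7.17, 6.76, 8.22 and 7.26 in MEKi/CD40 tumours, and at 7.15, 6.94, 6.19, 6.77 and 7.01 in MEKi tumours. It was at 6.56, 7.44, 7.49 and 7.14 in anti-CD40 tumours, against 6.81, 7.46, 6.89, 7.21 and 7.68 in control tumours. Its groups all overlapped, and MEKi against control tumours differed by -0.40 ± 0.23 (SE; limma, adjusted p = 0.424).

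Trem1 was at 5.23, 5.15, 6.79 and 5.50 in MEKi/CD40 tumours, and at 6.07, 6.31, 5.79, 6.17 and 5.56 in MEKi tumours. It was at 6.40, 5.49, 6.06 and 6.09 in anti-CD40 tumours, against 6.00, 5.78, 6.52, 5.40 and 5.60 in control tumours. These groups overlapped as well, and MEKi/CD40 against MEKi tumours differed by -0.31 ± 0.36 (SE; limma, adjusted p = 0.747). Of the genes that carry the signal of TREM receptors, the adaptor gene Tyrobp fell by 0.75 ± 0.17 (SE) in MEKi against control tumours (limma, adjusted p = 0.0363), and the phospholipase gene Plcg2 fell by 0.96 ± 0.16 (SE; limma, adjusted p = 0.0144).

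Of the 4 MEKi/CD40 tumours, 3 stood apart in different lists. Tumour 2 had a mean adipocyte level of 9.83, against 5.98 or less elsewhere, and tumour 4 a mean skeletal muscle level of 8.29, against 3.29 or less elsewhere. Leaving out either one changed no count of members called. MEKi/CD40 tumour 3 was the highest of all 18 tumours for S100a8, Plac8, Csf3r and Trem1, and the lowest of its group for Vcan and Fn1 on their brightest sets. Looked up after these values were seen, Mmp8, the neutrophil collagenase, was at 6.57 in it and at 2.16 to 2.34 in the other 17 tumours, and Cxcl2, a neutrophil-attracting chemokine, was at 8.51 in it and at 3.69 or below elsewhere. The receptor genes Clec4e and Il1r2 were at 10.36 and 7.77 in it, against highest values elsewhere of 7.10 for Clec4e and 5.02 for Il1r2. Its mean level was also the highest of all 18 tumours for macrophage (12.25), endothelial (7.14), leukocyte (12.48) and chemoattractant (10.31) genes. The neutrophil granule list was highest in MEKi/CD40 tumour 2, at 4.94 against 4.715 in tumour 3. Without MEKi/CD40 tumour 3, the MEKi/CD40 difference from MEKi tumours was 2.22 for S100a8, 1.93 for S100a9 and 1.18 for Plac8, and Csf3r in MEKi/CD40 against anti-CD40 tumours was -0.09 in place of 0.20.

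Several genes listed for neutrophils were at background in every tumour, and whether neutrophils were present was not tested. Of 16 measured neutrophil granule genes, 9 were below 3 on all 18 arrays, among them Mpo, Elane, Ltf, Camp and Ngp, and so were 5 of 13 measured neutrophil surface genes, among them Cxcr2 and Cd177. In MEKi against control tumours, 0 of the 16 granule genes were called higher and 1 lower (Lyz2, lysozyme, at -0.74 ± 0.17 SE; limma, adjusted p = 0.0363; 2 of the 16 at an unadjusted p under 0.05), with a median difference of 0 beside 0 over all probe sets. Of the 13 surface genes, 0 were called higher and 1 lower: Itgam, the CD11b integrin chain, fell by 1.37 ± 0.26 (SE; limma, adjusted p = 0.0206). Of all probe sets, 3.99% were called higher and 3.83% lower in this comparison, and 9420 of 45037 were at an unadjusted p under 0.05. Other granule genes were well above background in all tumours, such as Lyz2 at 13.63 to 15.20 and the gelatinase gene Mmp9 at 9.83 to 11.86. In MEKi/CD40 against MEKi tumours, and against anti-CD40 tumours, limma called 0 of the 16 and 0 of the 13 in either direction, where it called 2.5% of all probe sets against MEKi and 11.6% against anti-CD40 tumours. At an unadjusted p under 0.05 there were 3 granule and 1 surface genes against MEKi tumours, and 0 granule and 1 surface genes against anti-CD40 tumours. Over all 45037 probe sets there were 7564 against MEKi and 10512 against anti-CD40 tumours.

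Classical monocyte genes moved in part. The list of 17 measured genes includes Plac8, Vcan and Fn1. In MEKi against control tumours 4 were called higher (Plac8, Fn1, Emilin2 and the acute-phase gene Saa3) and 1 lower (Lyz2), where 3.99% of all probe sets were called higher and 3.83% lower, with a median of 0.41 beside 0 over all probe sets. In MEKi/CD40 against MEKi tumours 3 rose and 0 fell, where 0.737% of all probe sets were called higher, with a median of 1.31: F13a1, coagulation factor XIII chain A, by 1.94 ± 0.31 (SE; limma, adjusted p = 0.0321), the matrix glycoprotein gene Emilin2 by 1.37 ± 0.21 (SE; limma, adjusted p = 0.0297) and Mgst1, a microsomal glutathione transferase, by 2.71 ± 0.43 (SE; limma, adjusted p = 0.0328). Against anti-CD40 tumours 6 rose and 0 fell, where 4.42% of all probe sets were called higher, with a median of 1.29. At an unadjusted p under 0.05 there were 9 of the 17 in each of these 3 comparisons. Over all 45037 probe sets there were 9420, 7564 and 10512, in the same order of comparisons. Ccr2, the chemokine receptor that defines classical monocytes, was at 7.85 to 9.31 in MEKi/CD40, 7.26 to 9.30 in MEKi, 8.09 to 9.82 in anti-CD40 and 8.87 to 10.55 in control tumours, and passed in no comparison tested.

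The molecules that call these cells in or bind calprotectin were uneven. Cxcl1, a ligand of the neutrophil receptor CXCR2, rose by 2.02 ± 0.44 (SE) in MEKi against control tumours (limma, adjusted p = 0.0312) and by 3.44 ± 0.37 (SE) in MEKi/CD40 against anti-CD40 tumours (limma, adjusted p = 0.00433). Ccl2, the main ligand of CCR2, fell by 0.82 ± 0.18 (SE) in MEKi against control tumours (limma, adjusted p = 0.0299). Of 13 chemoattractant genes, 2 rose and 1 fell in that comparison, with a median of 0.15. Of all probe sets, 3.99% were called higher and 3.83% lower there. In MEKi/CD40 against anti-CD40 tumours 3 of the 13 rose and 0 fell, with a median of 1.14, where 4.42% of all probe sets were called higher. Against MEKi tumours 0 were called, with a median of 1.33, where 2.5% of all probe sets were called. Csf3, which encodes G-CSF, was below 3 on all arrays.

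Of 10 genes for calprotectin receptors and their signalling, 2 rose and 2 fell in MEKi against control tumours, with a median of 0.02. Of all probe sets, 3.99% were called higher and 3.83% lower there. The 2 that rose were Tlr4 and Bsg. Tlr4, the Toll-like receptor that binds calprotectin, rose by 0.42 ± 0.08 (SE; limma, adjusted p = 0.0220), and Bsg, basigin, which binds S100A9, rose by 0.69 ± 0.08 (SE; limma, adjusted p = 0.00535). Ager, the RAGE receptor, was below 3 on all arrays. Among 12 measured S100 family genes, S100a16 rose by 1.45 ± 0.29 (SE) in MEKi against control tumours (limma, adjusted p = 0.0225) and by 1.62 ± 0.23 (SE) in MEKi/CD40 against MEKi tumours (limma, adjusted p = 0.0275).

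Of the lists for other cells that can make members, fibroblast and keratinocyte genes had the order of group means of S100a8, S100a9, Plac8 and Vcan. Fn1, Csf3r and Trem1 had other orders. That order was not particular to these lists: adipocyte and red blood cell genes had it too. So did the classical monocyte list, which includes Plac8, Vcan and Fn1. Keratinocyte genes in anti-CD40 tumours were near control tumours, at a mean of 3.06 against 3.04. Macrophage genes were lowest in MEKi tumours. The mean level of 12 fibroblast genes was 12.54 to 13.08 in MEKi/CD40, 11.10 to 11.75 in MEKi, 10.09 to 10.73 in anti-CD40 and 9.65 to 10.30 in control tumours, and 6 of the 12 rose in MEKi against control tumours. Of all probe sets, 3.99% were called higher in that comparison. Of 16 keratinocyte genes, 7 were below 3 on all arrays, and the list's mean level was 3.46 to 3.88 in MEKi/CD40, 3.20 to 3.76 in MEKi, 3.00 to 3.12 in anti-CD40 and 2.99 to 3.14 in control tumours. The mean of 11 macrophage genes was 10.80 to 12.25 in MEKi/CD40, 9.99 to 10.71 in MEKi, 10.52 to 11.09 in anti-CD40 and 10.87 to 11.24 in control tumours. The mean of 9 adipocyte genes was 3.43 to 9.83 in MEKi/CD40, 3.38 to 4.70 in MEKi, 3.01 to 5.14 in anti-CD40 and 2.95 to 3.69 in control tumours. That of 4 red blood cell genes was 4.04 to 4.70 in MEKi/CD40, 3.19 to 3.82 in MEKi, 3.28 to 3.46 in anti-CD40 and 3.25 to 3.29 in control tumours. The part of these cells in the members' signals was not tested.

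**Figure D4:**
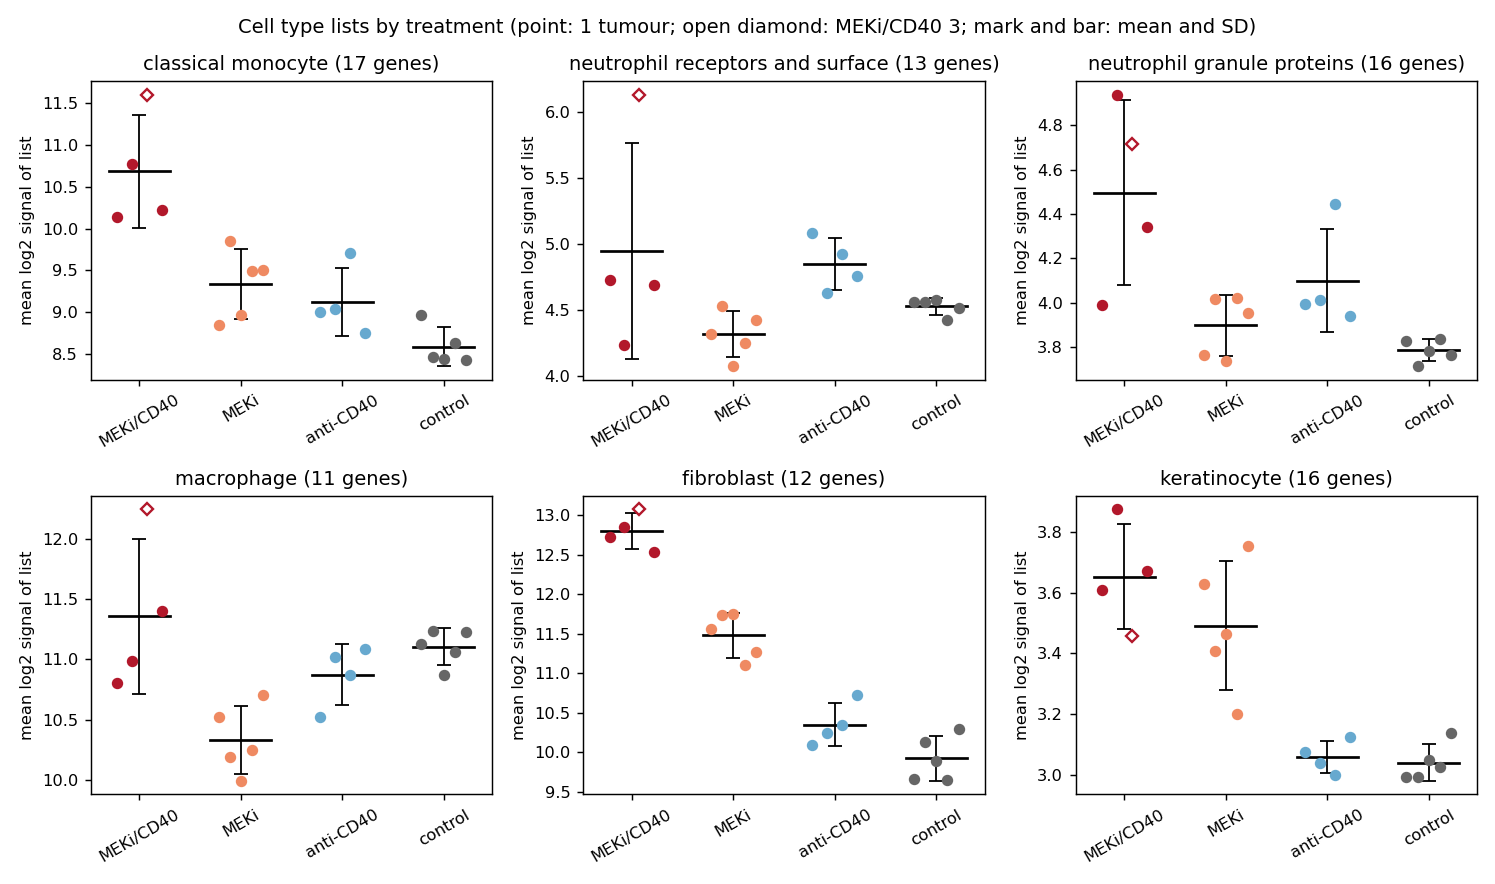
Mean log2 signal (vertical axis) of the measured genes of 6 cell type lists in each tumour by group (horizontal axis), with mean and SD; the open diamond is MEKi/CD40 tumour 3. Fibroblast genes sit at 12.54 to 13.08 in MEKi/CD40 tumours, against 9.65 to 10.30 in control tumours, while the mean of the 16 neutrophil granule genes stays below 5 in every tumour and MEKi/CD40 3 has the highest level of neutrophil surface genes.

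After each group's mean was subtracted, the gene whose level most resembled the mean of S100a8 and S100a9 over the 18 tumours was Thbs2, thrombospondin 2, a matrix protein gene, at r = 0.87. Vav3, Cela1, Rmc1 and Ampd3 came next at 0.79, 0.78, 0.77 and 0.76, out of 10380 genes above background on at least 9 arrays. Among the other members r was 0.47 for Plac8, 0.43 for Trem1, 0.29 for Vcan, 0.06 for Fn1 and -0.18 for Csf3r. These are descriptions over tumours that share the arrays' overall brightness.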

How the data were processed

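RNA of 18 whole tumours was measured on single-colour 3′ expression arrays (Affymetrix Mouse430_2). The authors deposited log2 signals, normalized by RMA per the labels (version not given in the sources used here); 64 control probe sets were left out and 45037 tested. Probe sets were named through the platform annotation: 34945 had 1 gene symbol, 932 several and 9160 none. The brightest set by mean over all arrays stood for a gene, avoiding _x_at sets. Pairs of groups were each fitted with limma 3.58.1 (R 4.3.3; lmFit and eBayes, Benjamini-Hochberg over all probe sets, threshold 0.05), and the interaction on all 18 arrays. Members and gene lists were chosen with earlier results of these data known. All members were named, and up to 4 genes per list and comparison by p, plus listed cell type markers at background. On simulated data the fit for MEKi against control recovered 82 of 100 probe sets changed by a log2 value of 1 and 100 of 100 changed by 3, with 8 false calls, and the interaction fit 78 and 100 of 100, with 8. The simulated noise was normal with no floor, and only probe sets with a mean signal above 6 were changed. S100a9 (mean 4.69) and Trem1 (mean 5.88) lie below that, so these rates do not cover them. Each sample came from a separate animal. Replicate numbers in the titles did not pair samples. Precision is limited by 4 to 5 arrays per group.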

Additional observations from a re-analysis of the deposited data

Results flagged for a closer look

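S100a9 in MEKi tumour 5 was at 2.48, below the other 4 MEKi tumours at 5.48 to 6.41, and its gap to the nearest of them took up 0.763 of the group's range. It was the only one of 28 groups of member values (7 genes in 4 treatments) with a tumour so far from the rest; chance marks about 1 in 20 such groups. S100a8 was also lowest in this tumour, at 4.43.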

How the results depend on the processing

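The number of members called was recomputed under each alternative. With the replicate block, 0 members were called in MEKi/CD40 against control, MEKi against control, MEKi/CD40 against anti-CD40 and MEKi against anti-CD40 tumours, in place of 4, 4, 2 and 1; same-numbered tumours did not deviate together (r -0.40 to 0.30, mean -0.03; 3 of 18 arrays correlated best with their own number). Within the number range that holds both groups, counts were 1 in MEKi/CD40 against control (Plac8), 0 in MEKi against control and 0 in MEKi against anti-CD40; the range as a block gave 0 in MEKi against control. One fit of all 18 arrays, or leaving out low probe sets, gave 2 in MEKi/CD40 against MEKi (S100a8 and Plac8) and 4 against anti-CD40 (with S100a9 and Fn1). The next brightest probe set gave 1 (Vcan), 1 and 0 in MEKi/CD40 against MEKi, MEKi/CD40 against anti-CD40 and MEKi against anti-CD40. Trend and robust moderation gave 0 in MEKi against anti-CD40. Chosen after seeing the data, leaving out the 3 arrays highest in adipocyte genes gave 0 in MEKi/CD40 against anti-CD40 and 0 in MEKi against anti-CD40. Leaving out 1 array at a time gave 4 to 4, 3 to 4, 0 to 0, 0 to 0, 2 to 2, 0 to 1 and 0 to 0 in MEKi/CD40 and MEKi and anti-CD40 against control, MEKi/CD40 against MEKi and against anti-CD40, MEKi against anti-CD40 and the interaction. Apart from leaving out 1 array, the probe sets called in all ranged from 113 to 9698 in MEKi/CD40 against control (6698 in the main fit). They ranged from 0 to 5866 in MEKi against control (3525) and from 407 to 8996 in MEKi/CD40 against anti-CD40 (5231). In MEKi against anti-CD40 they ranged from 3 to 4879 (2292), and in MEKi/CD40 against MEKi from 0 to 4286 (1127). The member counts stand beside these totals. The causes were not tested.

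Signs turned only for differences that had not passed, except Fn1 in MEKi against control tumours, at -0.29 on its next brightest set, where Trem1 was -0.37. With the number range as a block or within it, Vcan in MEKi against control was -0.03 and Trem1 in MEKi against anti-CD40 0.18; as a block, in anti-CD40 against control, Vcan was -0.16 and Trem1 -0.18. With the replicate block, Csf3r in anti-CD40 against control was 0.065 and Trem1 in MEKi against anti-CD40 0.075. Without the 3 arrays highest in adipocyte genes, Trem1 was 0.03 in MEKi/CD40 against MEKi and 0.0167 against anti-CD40, S100a8 -0.0293 and Vcan -0.17 in MEKi against anti-CD40, and the interaction -0.22 for S100a9 and -0.02 for Vcan. Leaving out 1 array, the differences ran from -0.16 to 0.15 for Csf3r in anti-CD40 against control, -0.15 to 0.34 for Csf3r in MEKi/CD40 against control, -0.0942 to 0.393 for Csf3r in MEKi/CD40 against anti-CD40, -0.20 to 0.10 for Trem1, -0.0293 to 0.848 for S100a8 and -0.17 to 0.18 for Vcan in MEKi against anti-CD40, and -0.57 to 0.65 for S100a9 and -0.21 to 0.88 for S100a8 in the interaction.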
